A study of Mus musculus with 14 samples.

Results

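The genes described here are the DNA methyltransferases Dnmt1, Dnmt3a and Dnmt3b, the catalytically inactive relative Dnmt3l, and Uhrf1, the partner of Dnmt1. They were chosen by gene symbol, and all 5 were found among the 24015 genes of the read-count table and passed the filter on low counts that left 16247 genes. RNA was sequenced from 14 libraries of mouse pluripotent cells, 2 in each of 7 groups, which the submitters call biological duplicates. The naive reference was ESC, blastocyst-derived embryonic stem cells of CD1/JF1 genotype kept with LIF on feeder cells. EpiSC, blastocyst-derived epiblast stem cells of CD1/JF1 genotype kept with bFGF, were the primed starting point. EpiSC were moved to LIF/KSR medium with 100 µM MM401, a compound that blocks the histone methyltransferase Mll1, for 3 days (MM401 day 3) or for 6 days to passage 2 (MM401 P2). Reverted lines (rES) carried the genotype CD1-deltaTSIX/JF1, were kept in LIF/KSR medium with 25 µM MM401 after passage 3, and had RNA taken at passages 6 and 30, with a passage 30 culture grown without MM401 as well. All groups given MM401 therefore differed from EpiSC in medium as well, and against EpiSC the effects of the medium and of the compound cannot be told apart; the rES cultures at passage 30 with and without MM401 differed in the compound alone, as far as the labels say. The rES lines also differ from EpiSC and ESC in genotype, which cannot be told apart from reversion, and the sources used here do not give how many lines or clones they represent.

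Dnmt1 copies methylation onto the new strand after DNA replication, and Uhrf1 brings it to hemimethylated sites. Dnmt3a and Dnmt3b place methylation at sites that had none, and Dnmt3l, which has no enzyme activity of its own, stimulates them. In the mouse, Dnmt3b is a gene of the primed epiblast. Dnmt3l is abundant in stem cells grown in serum or serum replacement and in germ cells. Cells of the naive state can carry less DNA methylation than primed ones, depending on how they are grown. Only RNA was measured here, so neither protein nor methylation of DNA is described.

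Depth was 20831588 to 23677089 counts a library in 5 groups, but 113221270 and 116086115 at MM401 day 3 and 74952496 and 80383376 in MM401 P2. The cell labels were checked against markers. The summed level of 6 markers of the primed state lay between 202 and 573 CPM (counts scaled to library size with TMM) in all groups other than EpiSC, against 1524 and 1501 CPM in EpiSC, but the 6 did not move as one: relative to EpiSC 3 were higher and 3 lower in ESC, 2 higher and 4 lower at day 3, none higher and 6 lower in P2, and 1 higher and 5 lower in each rES group. The summed level of 6 markers of the naive state was at least 1933 CPM in those groups, against 507 and 496 CPM in EpiSC, and all 6 were higher than in EpiSC in each of them. Rn45s, the ribosomal precursor RNA, took 2.00% of counts in replicate 2 of rES passage 30 against 0.548% in replicate 1, the groups at MM401 day 3 and P2 held 1.39% to 1.90%, and all other libraries held 0.350% to 0.911%. None of 14 fibroblast markers, which feeder cells would carry, was at 0 in any library. Their summed level was 19090 and 18571 CPM in MM401 P2, the highest of all groups, and 10901 and 10843 CPM in ESC, 7500 and 7459 CPM at MM401 day 3, 6878 and 6928 CPM in EpiSC, 6059 and 6030 CPM in rES passage 6, 3747 and 3739 CPM in rES passage 30 and 2993 and 3045 CPM without MM401. Single fibroblast markers did not all follow this sum. Dcn was 64.8 and 63.6 CPM in ESC against 251 and 246 CPM in EpiSC, and Lum 25.8 and 26.9 CPM against 79.9 and 80.6 CPM. Dcn was also 71.0 and 65.6 CPM without MM401 against 55.2 and 58.4 CPM in rES passage 30. Like the sum, Dcn was highest in MM401 P2, at 547 and 557 CPM. The sum of 6 markers of primitive endoderm was 2821 and 2830 CPM in ESC and lay between 236 and 809 CPM elsewhere. In such bulk libraries fewer cells of a type and less RNA per cell cannot be told apart.

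The enzymes that set up methylation and those that maintain it followed different courses. After 3 days of LIF and MM401, Dnmt3b RNA was 9.15-fold and Dnmt3a RNA 4.35-fold lower than in EpiSC, while Dnmt3l was 9.27-fold higher and Dnmt1 and Uhrf1 were 1.33-fold and 1.5-fold higher. In rES passage 30, Dnmt3b was still 15.1-fold and Dnmt3a 3.51-fold below EpiSC, and Dnmt3l was 45.6-fold above. Dnmt3b was also 8.94-fold lower in rES passage 30 than in ESC, where it was 1.69-fold lower than in EpiSC. All these differences passed the test (edgeR quasi-likelihood test, Benjamini-Hochberg adjusted p under 0.05 over all genes).

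**Figure D1:**
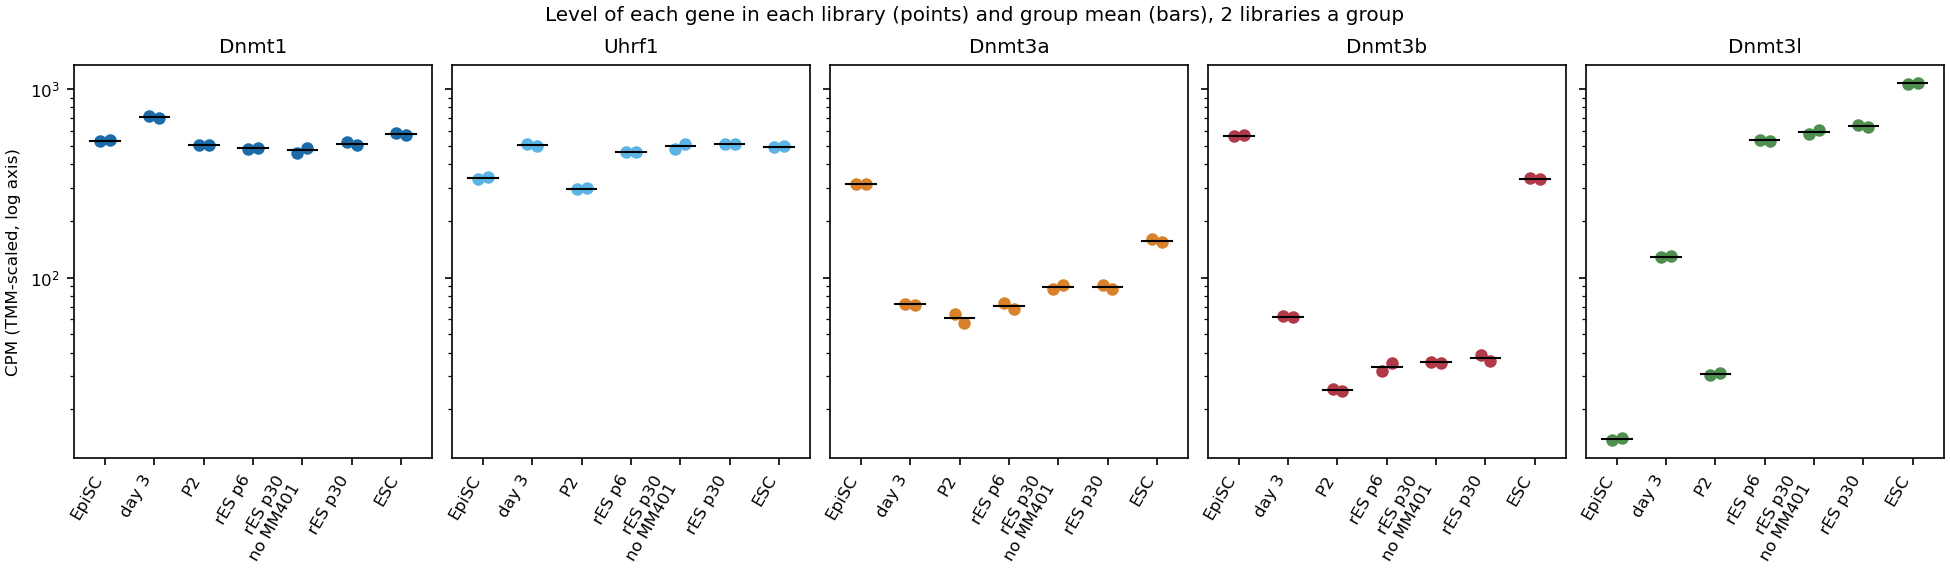
Level of each gene in CPM (TMM-scaled, log axis) in each of the 14 libraries (points) with the mean of the 2 libraries of a group (bars). Dnmt3b was at 25.1 to 62.4 CPM in all MM401 and rES libraries, against 334 to 573 CPM in ESC and EpiSC, while Dnmt1 lay between 460 and 722 CPM everywhere.

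Calls were common in this series and a count of called genes has to be read against that. In ESC against EpiSC all 5 genes were called, 3 higher and 2 lower, where 74.5% of all genes were called, 37% higher and 37.5% lower. At MM401 day 3 against EpiSC all 5 were called, 3 higher and 2 lower, where 76.6% of genes were, 38.7% higher and 37.9% lower, and 3 of the 5 also moved at least 2-fold, where 27.4% of genes did. In rES passage 30 against EpiSC 4 of 5 were called, 2 higher and 2 lower, where 76.3% of genes were, 38% higher and 38.3% lower, and 3 moved at least 2-fold, where 32% did. With 5 genes, these counts say little beside such shares, and the following paragraphs describe the sizes of the changes.

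**Figure D2:**
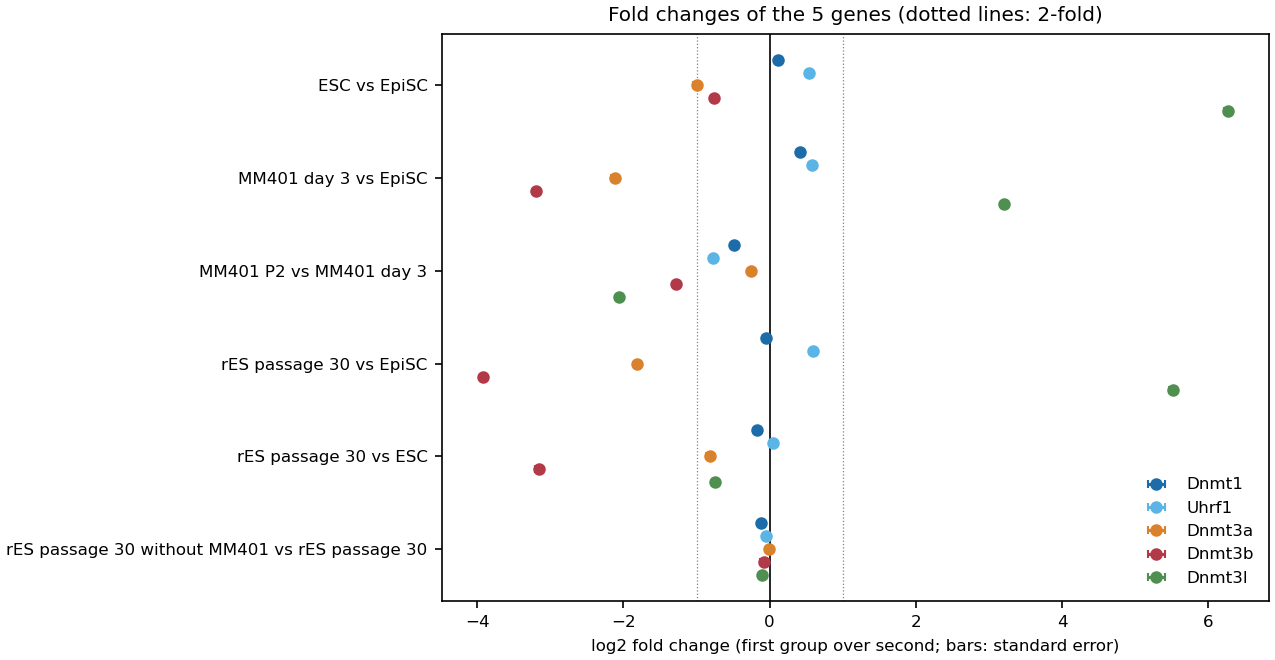
Log2 fold change of the first group over the second for the 5 genes in 6 comparisons (points), with its standard error (bars, mostly smaller than the points); dotted lines mark a 2-fold change. Dnmt3b and Dnmt3l lay farthest from 0 in MM401 day 3 and rES passage 30 against EpiSC, Dnmt3l and Dnmt3a in ESC against EpiSC, and no gene reached 2-fold when rES passage 30 without MM401 was compared with rES passage 30.

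Dnmt3b, the de novo methyltransferase of the early embryo, had 1 RefSeq start with a promoter window (250 bases before to 50 after the start). It lies at chr2:153649199-153649498 on the plus strand of GRCm38.p6 and holds 30 CpG sites, more than 88.3% of the 32851 mouse windows, whose median is 7. Dnmt3a, which methylates many of the same sites and also acts in later tissues, has 3 such windows with 46, 47 and 18 CpG sites. The Dnmt3b window and the Dnmt3a window with 47 sites are shown because these were the genes that fell together. Counts per gene do not tell which start was used in these cells. CG pairs are in capitals.
Dnmt3b: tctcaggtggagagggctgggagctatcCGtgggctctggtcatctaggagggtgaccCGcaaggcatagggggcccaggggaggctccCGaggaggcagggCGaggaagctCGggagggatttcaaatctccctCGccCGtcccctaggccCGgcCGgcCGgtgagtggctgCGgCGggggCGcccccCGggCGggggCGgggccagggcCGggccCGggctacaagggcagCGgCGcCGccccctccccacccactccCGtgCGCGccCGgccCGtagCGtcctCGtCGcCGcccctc
Dnmt3a (chr12:3806910-3807209, plus strand): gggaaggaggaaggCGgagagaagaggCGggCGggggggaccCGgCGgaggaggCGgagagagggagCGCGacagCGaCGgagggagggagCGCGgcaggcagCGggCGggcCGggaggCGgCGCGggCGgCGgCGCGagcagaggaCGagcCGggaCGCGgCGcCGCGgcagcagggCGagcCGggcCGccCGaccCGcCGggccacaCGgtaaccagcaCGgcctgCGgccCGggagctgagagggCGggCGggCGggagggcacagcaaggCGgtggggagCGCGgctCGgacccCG

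Dnmt3b stood at 336 and 334 CPM in ESC. From EpiSC onward it stood at 561 and 573 CPM in EpiSC, 62.4 and 61.5 CPM at MM401 day 3, 25.7 and 25.1 CPM in MM401 P2, 31.8 and 35.1 CPM in rES passage 6 and 38.9 and 36.0 CPM in rES passage 30. Both libraries of every MM401 or rES group lay below every library of ESC and EpiSC. Against EpiSC the log2 fold change was -3.19 ± 0.04 (SE, adjusted p 7.76e-41) at day 3, -4.48 ± 0.04 (3.27e-44) in P2, -4.08 ± 0.05 (6.23e-42) in rES passage 6 and -3.92 ± 0.05 (9.01e-42) in rES passage 30. In P2 against EpiSC it had the rank 101 by fall among 16247 genes, on the fitted log2 fold change. The groups compared with EpiSC share its 2 libraries.

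In ESC Dnmt3b was 0.76 ± 0.04 log2 units lower than in EpiSC (adjusted p 1.44e-20). Against ESC, Dnmt3b in rES passage 30 fell by 3.16 ± 0.05 on the log2 scale (adjusted p 7.21e-38). Both rES passage 30 libraries lay far below both ESC libraries. The ESC libraries had the highest sum of primitive endoderm markers, and the part of such cells in their levels was not tested. That sum includes Col4a1, which had at least 4878 counts in every library.

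Dnmt3a stood at 161 and 154 CPM in ESC. From EpiSC onward it stood at 315 and 313 CPM in EpiSC, 72.6 and 71.8 CPM at MM401 day 3, 63.9 and 57.6 CPM in MM401 P2, 73.8 and 67.9 CPM in rES passage 6 and 91.9 and 86.8 CPM in rES passage 30. The order resembles that of Dnmt3b, with EpiSC highest, ESC next and MM401 P2 lowest, but the range is narrower. The log2 fold change against EpiSC was -2.12 ± 0.04 at day 3 (adjusted p 1.09e-33), -2.37 ± 0.05 in P2 (7.25e-35) and -1.81 ± 0.05 in rES passage 30 (1.99e-30). In ESC Dnmt3a was 2.00-fold lower than in EpiSC (log2 fold change -0.996 ± 0.05, adjusted p 3.86e-22), just short of the 2-fold threshold. In rES passage 30 it was 1.76-fold lower than in ESC (log2 fold change -0.82 ± 0.05, adjusted p 5.06e-18). The genes Dnmt3aos and Gm31623 overlap Dnmt3a, and Dnmt3aos had at most 0.125 CPM.

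Dnmt3l, the cofactor, has 3 RefSeq starts on the plus strand of chromosome 10, and their windows hold 6, 4 and 3 CpG sites, below the median of all windows. The window of the first, with 6, is printed beside the CpG-rich windows of the de novo enzymes, whose RNA moved the other way. Dnmt1 and Uhrf1, which rose at day 3 as Dnmt3l did, each have a window with 33 CpG sites. Reads were counted per gene, so the windows printed need not be those of the starts used in these cells. A part of CpG content was not tested. CG pairs are in capitals.
Dnmt3l (chr10:78042037-78042336, plus strand): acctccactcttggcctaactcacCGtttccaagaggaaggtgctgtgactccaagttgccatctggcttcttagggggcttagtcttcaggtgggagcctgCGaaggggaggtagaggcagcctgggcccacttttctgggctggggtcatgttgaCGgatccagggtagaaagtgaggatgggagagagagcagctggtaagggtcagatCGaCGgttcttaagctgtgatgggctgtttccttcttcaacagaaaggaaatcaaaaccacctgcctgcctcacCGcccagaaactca

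Dnmt3l stood at 1069 and 1075 CPM in ESC. From EpiSC onward it stood at 13.7 and 14.2 CPM in EpiSC, 129 and 130 CPM at MM401 day 3, 30.5 and 31.3 CPM in MM401 P2, 539 and 533 CPM in rES passage 6 and 643 and 631 CPM in rES passage 30. Neighbours in the order of the 7 groups all differed by the test. The weakest step, rES passage 30 over the same line without MM401 (adjusted p 0.0245), kept its call in only 8 of 12 alternatives. ESC were 76.8-fold above EpiSC (log2 fold change 6.26 ± 0.05, adjusted p 4.55e-48), and Dnmt3l had the rank 34 among all genes by rise. Against EpiSC the log2 fold change was 3.21 ± 0.05 (2.26e-38) at day 3, 1.15 ± 0.05 (1.50e-21) in P2, 5.26 ± 0.05 (3.23e-45) in rES passage 6 and 5.51 ± 0.05 (5.37e-46) in rES passage 30. In rES passage 30 Dnmt3l was 1.68-fold below ESC (log2 fold change -0.75 ± 0.03, adjusted p 4.73e-22), so the reverted lines lay between both references for this gene and below both for Dnmt3a and Dnmt3b.

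Dnmt3l overlaps Aire, a gene on the other strand, and no source used here gives the strand of the libraries, so reads from the overlap cannot be assigned to either gene. Aire had 9.30 and 9.58 CPM at MM401 day 3, 0.624 and 0.765 CPM in MM401 P2, 74.0 and 64.9 CPM in rES passage 30, 88.6 and 86.4 CPM in ESC and 2.00 and 1.94 CPM in EpiSC. In each of these libraries its level was below that of Dnmt3l.

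MM401 P2 stood apart from the time before it. All 5 genes fell in P2 relative to day 3, where 70.8% of genes were called and 33.3% fell, and Dnmt3b and Dnmt3l fell at least 2-fold, where 2.32% of genes did. Dnmt3l was 4.18-fold lower (log2 fold change -2.06 ± 0.04, adjusted p 1.01e-34), with the rank 62 by fall among 16247 genes. Dnmt3b was 2.43-fold lower (-1.28 ± 0.04, 2.13e-26), Uhrf1 1.70-fold (-0.77 ± 0.03, 2.87e-22), Dnmt1 1.41-fold (-0.49 ± 0.03, 3.22e-16) and Dnmt3a 1.19-fold (-0.25 ± 0.04, 4.25e-06). Marker lists moved as well: all 14 fibroblast markers rose relative to day 3, with a median log2 fold change of 1.61, all 18 S phase genes fell, with a median of -0.67, all 6 naive markers fell, 3 primed markers rose and 2 fell, 3 primitive endoderm markers rose and 1 fell, where 37.5% of all genes rose, and the summed level of Pou5f1, Sox2 and Nanog was 2051 and 2036 CPM in P2 against 2955 and 2980 CPM at day 3. The part of other cells in the fall of the 5 genes was not tested. The title of the second P2 library reads P2b, and the sources used here do not say whether both come from 1 culture.

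In rES passage 6 relative to MM401 P2, 4 of 5 genes rose and Dnmt1 was not called, where 73% of genes were called and 35.5% rose. The rise of Dnmt3l was 17.3-fold (log2 fold change 4.12 ± 0.04, adjusted p 8.42e-45), against 1.32-fold for Dnmt3b, 1.17-fold for Dnmt3a and 1.56-fold for Uhrf1. Fibroblast markers, genotype and the dose of MM401 also differ between these groups. Between rES passage 30 and rES passage 6, 4 of 5 genes were higher at passage 30, where 25.6% of genes were called and 11.3% were higher, and none by 2-fold: Dnmt3a by 1.26-fold, Dnmt3l by 1.19-fold, Dnmt3b by 1.12-fold and Uhrf1 by 1.10-fold. The call for Dnmt3b in that pair had an adjusted p of 0.0349 and was lost in 5 of the alternative settings.

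Dnmt1 and Uhrf1, the maintenance pair, have CpG-rich windows at 1 of their starts, each with 33 CpG sites. Both windows hold letters of the E2F motif, searched as TTTCCCGC, TTTGGCGC, TTTCGCGC or TTTGCCGC on both strands. E2F factors are known to drive genes of DNA replication. Such letters occur in 2.27% of all windows. Each motif searched holds a CG pair, so the share among CpG-rich windows may differ, and it was not counted. The other windows of Dnmt1 and Uhrf1 hold no such letters. The windows with a match are shown with the motif in capitals. They were picked because both genes rose at day 3 and fell in P2, as most of the S phase genes described below did. A match is a description of letters, not a site of binding, and a part of E2F was not tested.
Dnmt1 (chr9:20952574-20952873, minus strand): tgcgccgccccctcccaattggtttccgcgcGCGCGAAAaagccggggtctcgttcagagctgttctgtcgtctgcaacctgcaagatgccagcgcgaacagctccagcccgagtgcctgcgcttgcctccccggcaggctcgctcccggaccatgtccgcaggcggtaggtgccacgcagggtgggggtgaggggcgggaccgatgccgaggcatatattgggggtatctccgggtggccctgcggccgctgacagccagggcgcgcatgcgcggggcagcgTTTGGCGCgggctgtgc
Uhrf1 (chr17:56304063-56304362, plus strand): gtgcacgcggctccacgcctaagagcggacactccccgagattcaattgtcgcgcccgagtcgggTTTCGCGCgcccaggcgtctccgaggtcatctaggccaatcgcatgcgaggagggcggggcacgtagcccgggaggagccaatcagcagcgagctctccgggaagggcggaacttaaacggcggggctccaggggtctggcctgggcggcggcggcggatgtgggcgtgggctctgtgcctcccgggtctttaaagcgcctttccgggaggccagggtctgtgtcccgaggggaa

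Dnmt1 stood at 586 and 572 CPM in ESC. From EpiSC onward it stood at 531 and 534 CPM in EpiSC, 722 and 698 CPM at MM401 day 3, 507 and 503 CPM in MM401 P2, 483 and 489 CPM in rES passage 6 and 524 and 503 CPM in rES passage 30. Day 3 was highest, ESC next, and from EpiSC downward no neighbouring groups in the order differed by the test. Groups farther apart did differ: rES passage 6 and rES passage 30 without MM401 were both called lower than EpiSC. Over the alternatives these log2 fold changes ran from -0.258 to -0.123 and from -0.315 to -0.124. Dnmt1 rose at day 3 relative to EpiSC (log2 fold change 0.41 ± 0.03, adjusted p 4.93e-14) and its change in rES passage 30 was not called (-0.05 ± 0.03, 0.179), but when libraries were scaled to their total counts it was -0.21 and was called (adjusted p 1.52e-06). In ESC Dnmt1 was 0.12 ± 0.03 log2 units higher than in EpiSC (adjusted p 0.00207), but with total counts the value was -0.03 and was not called. Against ESC, Dnmt1 in rES passage 30 fell by 0.17 ± 0.03 on the log2 scale (adjusted p 3.49e-05).

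Uhrf1 stood at 490 and 496 CPM in ESC. From EpiSC onward it stood at 334 and 343 CPM in EpiSC, 512 and 499 CPM at MM401 day 3, 296 and 297 CPM in MM401 P2, 465 and 463 CPM in rES passage 6 and 510 and 512 CPM in rES passage 30. EpiSC and P2 formed the low end and the other groups lay close together. Against EpiSC the log2 fold change was 0.54 ± 0.04 in ESC (adjusted p 4.35e-17), 0.58 ± 0.03 at day 3 (2.71e-18), -0.19 ± 0.03 in P2 (7.16e-06) and 0.60 ± 0.04 in rES passage 30 (2.03e-18). Uhrf1 in rES passage 30 was not called against ESC (0.05 ± 0.04, adjusted p 0.192), while the other 4 genes fell there, where 71.1% of genes were called and 35.8% fell.

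Leaving MM401 out of the rES culture at passage 30 moved none of these genes by 2-fold. Without MM401, Dnmt3b stood at 35.9 and 35.2 CPM against 38.9 and 36.0 CPM with MM401, Dnmt3a at 87.3 and 91.1 CPM against 91.9 and 86.8 CPM, and Uhrf1 at 478 and 513 CPM against 510 and 512 CPM. None of the 3 was called, with log2 fold changes of -0.08 ± 0.06, -0.003 ± 0.05 and -0.04 ± 0.04. Dnmt1 stood at 460 and 488 CPM without MM401 against 524 and 503 CPM with it (-0.12 ± 0.04, adjusted p 0.0152). Dnmt3l stood at 575 and 609 CPM without MM401 against 643 and 631 CPM with it (-0.11 ± 0.03, 0.0245). These 2 of 5 fell, where 19.7% of genes were called, 9.3% fell and 0.271% moved at least 2-fold. Both calls were lost when either replicate 1 of rES passage 30 (adjusted p 0.155 for Dnmt1 and 0.119 for Dnmt3l) or replicate 1 without MM401 (0.211 and 0.283) was left out. Replicate 2 of rES passage 30 was the library with the most Rn45s, and without it Dnmt1 (-0.14, adjusted p 0.0114) and Dnmt3l (-0.12, 0.0404) were still called.

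Ratios between 2 of the genes within a library do not depend on how libraries are scaled. Reads of Dnmt3a per read of Dnmt3b were 0.478 and 0.461 in ESC; in the series they were 0.561 and 0.547 in EpiSC, 1.16 and 1.17 at MM401 day 3, 2.48 and 2.29 in MM401 P2, 2.32 and 1.93 in rES passage 6 and 2.36 and 2.41 in rES passage 30. ESC and EpiSC thus had more reads of Dnmt3b than of Dnmt3a, and every MM401 and rES library had more of Dnmt3a. Reads are not corrected for length. Per kilobase of the longest transcript, Dnmt3a per Dnmt3b was still below 1 at MM401 day 3 (0.519 and 0.521). With the median transcript lengths it was already 2.80 and 2.73 in EpiSC, so which gene leads depends on the length used. Reads of Dnmt3l per read of Dnmt3b were 16.5 and 17.5 in rES passage 30, 3.18 and 3.21 in ESC and 0.0245 and 0.0247 in EpiSC. Reads of Dnmt3l per read of Dnmt3a were 6.99 and 7.27 in rES passage 30 and 6.65 and 6.98 in ESC, against 0.0437 and 0.0452 in EpiSC. The ratio to Dnmt3b in rES was several times that in ESC, while the ratio to Dnmt3a was close to it. Reads of Uhrf1 per read of Dnmt1 were 0.973 and 1.02 in rES passage 30, 0.583 and 0.592 in MM401 P2 and 0.837 and 0.867 in ESC, against 0.629 and 0.642 in EpiSC. With 2 libraries a group these ratios are values with no test.

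**Figure D3:**
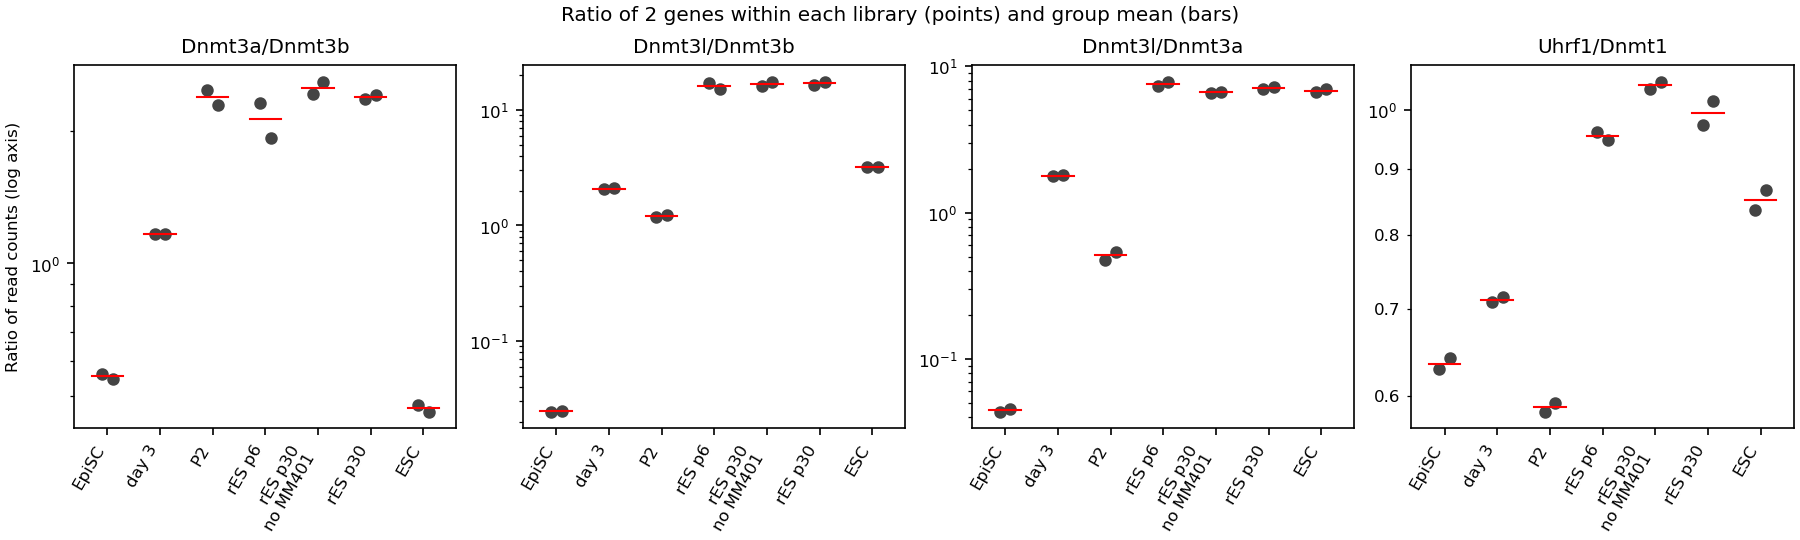
Ratio of read counts of 2 genes within each library (points; log axis, with a scale for each panel) and the mean of the group (bars). Dnmt3a per Dnmt3b lay at or below 0.561 in EpiSC and ESC and at 1.16 or more in all other libraries, and Dnmt3l per Dnmt3b was 15.2 or more in the rES libraries only.

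Levels of different genes can be compared per length. Per kilobase of the longest GENCODE M21 transcript, CPM in rES passage 30 averaged 349 ± 4.7 for Dnmt3l, 143 ± 0.29 for Uhrf1, 87.5 ± 2.6 for Dnmt1, 9.22 ± 0.37 for Dnmt3a and 8.67 ± 0.48 for Dnmt3b (SD, n = 2). In EpiSC they averaged 131 ± 2.0 for Dnmt3b, 94.3 ± 1.8 for Uhrf1, 90.7 ± 0.40 for Dnmt1, 32.4 ± 0.12 for Dnmt3a and 7.66 ± 0.16 for Dnmt3l. So Dnmt3b led in EpiSC and Dnmt3l in rES on this scale. The place of Dnmt3a is uncertain, since its longest transcript has 9685 bases and its median transcript 820.5; with the median length its level is 383 in EpiSC, above the other 4, and 109 in rES passage 30, above Dnmt1. Among the 4 Dnmt genes, per longest transcript, Dnmt3l held 76.6% and 77.1% in rES passage 30 and 75.1% and 75.6% in ESC, against 2.90% and 2.95% in EpiSC, where Dnmt3b held 49.9% and 50.3%. In MM401 P2 Dnmt1 held 74.7% in both libraries. With the median lengths Dnmt3l held 68.0% and 68.7% in rES passage 30 and 66.8% and 67.5% in ESC, but Dnmt3b held 21.7% and 22.1% in EpiSC, where Dnmt3a led with 60.7% and 60.2%, and Dnmt1 held 47.6% and 49.1% in P2.

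**Figure D4:**
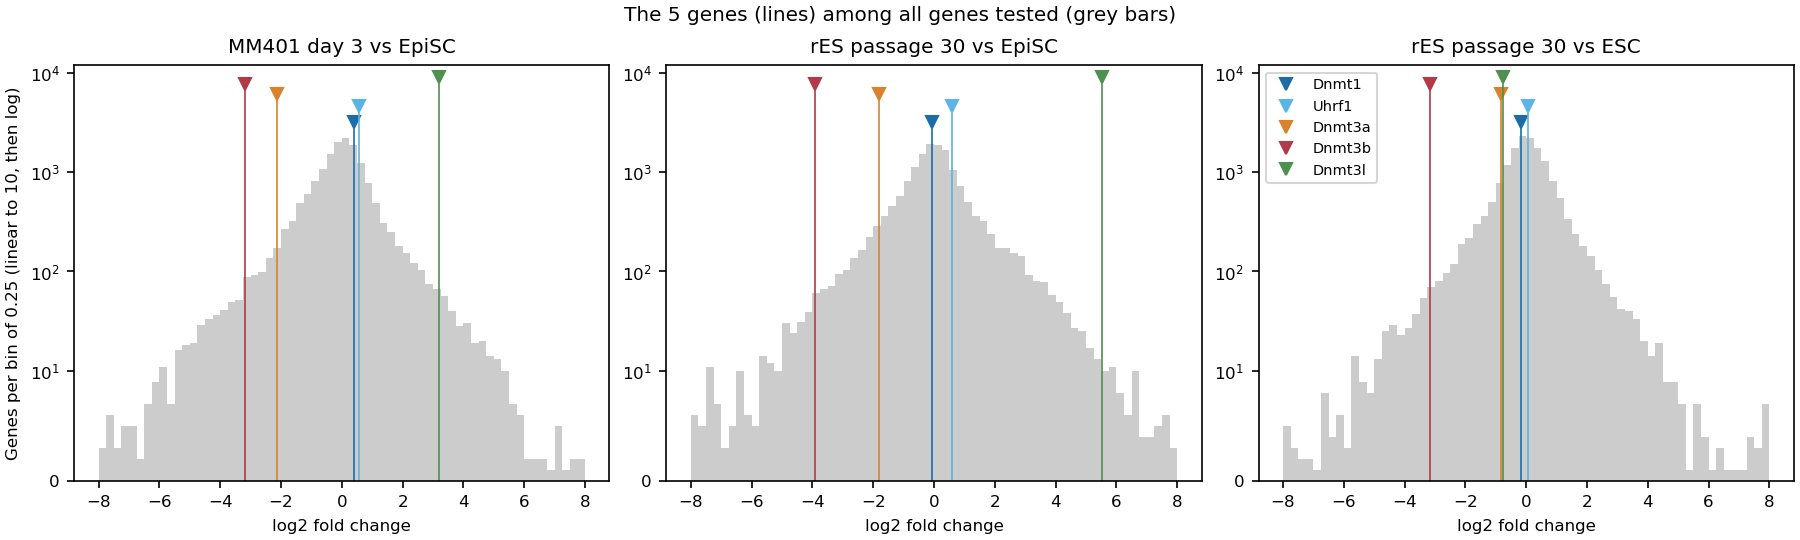
Log2 fold change of the 5 genes (coloured lines) over the distribution of all genes tested (grey bars; genes beyond 8 log2 units are not drawn; the vertical axis is linear to 10 and then logarithmic) in MM401 day 3 and rES passage 30 against EpiSC and in rES passage 30 against ESC. Dnmt3b lay in the far lower tail of all 3, at -3.19, -3.92 and -3.16.

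The genes with the most similar pattern were sought by the root mean square difference of centred log2 CPM over the 7 group means, among 11341 genes of at least 10 CPM in a group. For Uhrf1 they were Mcm3, a subunit of the replicative helicase (difference 0.06 log2 units, Pearson r 0.98), Mad1l1 and Polr1b. For Dnmt1 they were Gtf3c5, Dtd2 and Smarcb1, at 0.05 to 0.06. For Dnmt3a they were Epcam, an adhesion molecule of epithelia, at 0.16, Dab1 and Il17rd. For Dnmt3b they included Lef1, a transcription factor of Wnt signalling, at 0.45 and Pim2 at 0.47. For Dnmt3l the nearest genes were farther, Aire at 0.81, Zfp459 at 0.85 and Notum at 0.86, and Aire shares sequence with it as described above. These likenesses rest on 7 means and are descriptions.

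Other genes of DNA methylation were taken from lists and compared with all genes, whose median log2 fold change was within 0.04 of 0 in the comparisons of this paragraph and the next 3. Of 9 partners of maintenance, 6 were higher and 2 lower at MM401 day 3 relative to EpiSC (median 0.34), 1 higher and 7 lower in P2 relative to day 3 (median -0.48), and 5 higher and 3 lower in rES passage 30 relative to EpiSC (median 0.19). Of all genes, 38.7% were higher and 37.9% lower in the first comparison, 37.5% and 33.3% in the second, and 38% and 38.3% in the third. Usp7, a deubiquitinase that binds Dnmt1 and Uhrf1, was 1.06 ± 0.03 log2 units higher at day 3 and 1.27 ± 0.03 higher in rES passage 30 than in EpiSC. Cdca7l was 2.02 ± 0.07 and 2.11 ± 0.08 log2 units lower in the same comparisons. Dppa3, known in mouse to keep Uhrf1 from chromatin, was 1.76 ± 0.14 log2 units lower in rES passage 30 than in ESC, at a mean of 5.37 CPM against 18.1 CPM.

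Of 16 partners and regulators of de novo methylation, 9 were higher and 7 lower at day 3 than in EpiSC (median 0.20), and 10 were higher and 6 lower in rES passage 30 (median 0.56), where 38.7% and 37.9% of all genes were higher and lower at day 3 and 38% and 38.3% in rES passage 30. Prdm14, which is known to repress Dnmt3a, Dnmt3b and Dnmt3l in mouse stem cells, averaged 131.9 CPM at day 3 (log2 fold change 2.72 ± 0.05), 215.7 CPM in rES passage 30 (3.43 ± 0.05) and 59.8 CPM in ESC (1.58 ± 0.06), against 20.0 CPM in EpiSC. It was also 1.85 ± 0.05 log2 units higher in rES passage 30 than in ESC (adjusted p 6.89e-31). In MM401 P2 Prdm14 stood at 86.9 and 86.4 CPM, below day 3, while Dnmt3a and Dnmt3b were lower than at day 3. In all these groups Dnmt3a and Dnmt3b were below EpiSC but Dnmt3l was above it. The part of Prdm14 in these levels was not tested. Zfp57, which keeps methylation at imprinted sites, was 2.67 ± 0.04 log2 units above EpiSC at day 3 and 2.73 ± 0.04 above in rES passage 30. Morc1, which acts in silencing of transposons in the male germ line, was 3.22 ± 0.05 and 3.59 ± 0.05 above. Without MM401, 6 of the 16 fell relative to rES passage 30 and none rose, where 9.3% of all genes fell and 10.4% rose; the 6 were 4 to 8 over the alternatives. Among them were Mga and Setd2, which fell by 0.27 ± 0.04 and 0.26 ± 0.04 on the log2 scale.

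Of the enzymes that oxidise methylcytosine, Tet2 averaged 514 CPM in rES passage 30 against 53.1 CPM in EpiSC (log2 fold change 3.27 ± 0.05), and Tet1 1065 CPM against 211 CPM (2.33 ± 0.04). Both were also higher in rES passage 30 than in ESC, by 1.62 ± 0.04 and 1.38 ± 0.04 log2 units, and Tet1 was 0.39 ± 0.04 log2 units lower without MM401 (adjusted p 4.01e-10). Tet3 was 1.18 ± 0.06 log2 units lower at day 3 than in EpiSC. Tdg did not pass the filter on low counts. The sources used here do not say how reads from several places were counted, so its RNA level is not described. Of 8 genes that read methylated CpG, 3 rose and 4 fell at day 3 relative to EpiSC, where 38.7% and 37.9% of all genes did, and of 8 genes that supply the methyl donor 6 rose and 1 fell; scaled to total counts, 1 reader rose, and 3 of the donor genes rose and 2 fell.

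Of 15 germ line genes whose promoters are methylated in somatic cells, 14 were higher at day 3 than in EpiSC, none lower (median 1.52), and 13 were higher in rES passage 30, none lower (median 2.52). The shares of all genes were 38.7% higher and 37.9% lower at day 3 and 38% and 38.3% in rES passage 30. In rES passage 30 against ESC, 11 were higher and 3 lower (median 1.92), where 35.3% and 35.8% of all genes were; without replicate 1 of ESC, 1 was lower. Dazl, an RNA-binding protein of germ cells, averaged 152.7 CPM at day 3 against 12.4 CPM in EpiSC (log2 fold change 3.63 ± 0.08). It averaged 93.5 CPM in rES passage 30 against 14.01 CPM in ESC (2.73 ± 0.08). Ddx4, a germ cell helicase, was 3.62 ± 0.13 log2 units above EpiSC at day 3 and 3.95 ± 0.14 above in rES passage 30. In P2 relative to day 3, 9 of the 15 fell and 1 rose (median -0.51), where 33.3% of all genes fell and 37.5% rose. Of 18 S phase genes, 13 rose and 5 fell at day 3 relative to EpiSC (median 0.44), and 11 rose and 5 fell in rES passage 30 (median 0.21), beside the shares of all genes just given for these comparisons: 38.7% and 37.9% at day 3, 38% and 38.3% in rES passage 30. Mcm7, a subunit of the replicative helicase, was 0.62 ± 0.04 log2 units higher at day 3 than in EpiSC and 0.95 ± 0.04 lower in P2 than at day 3.

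**Figure D5:**
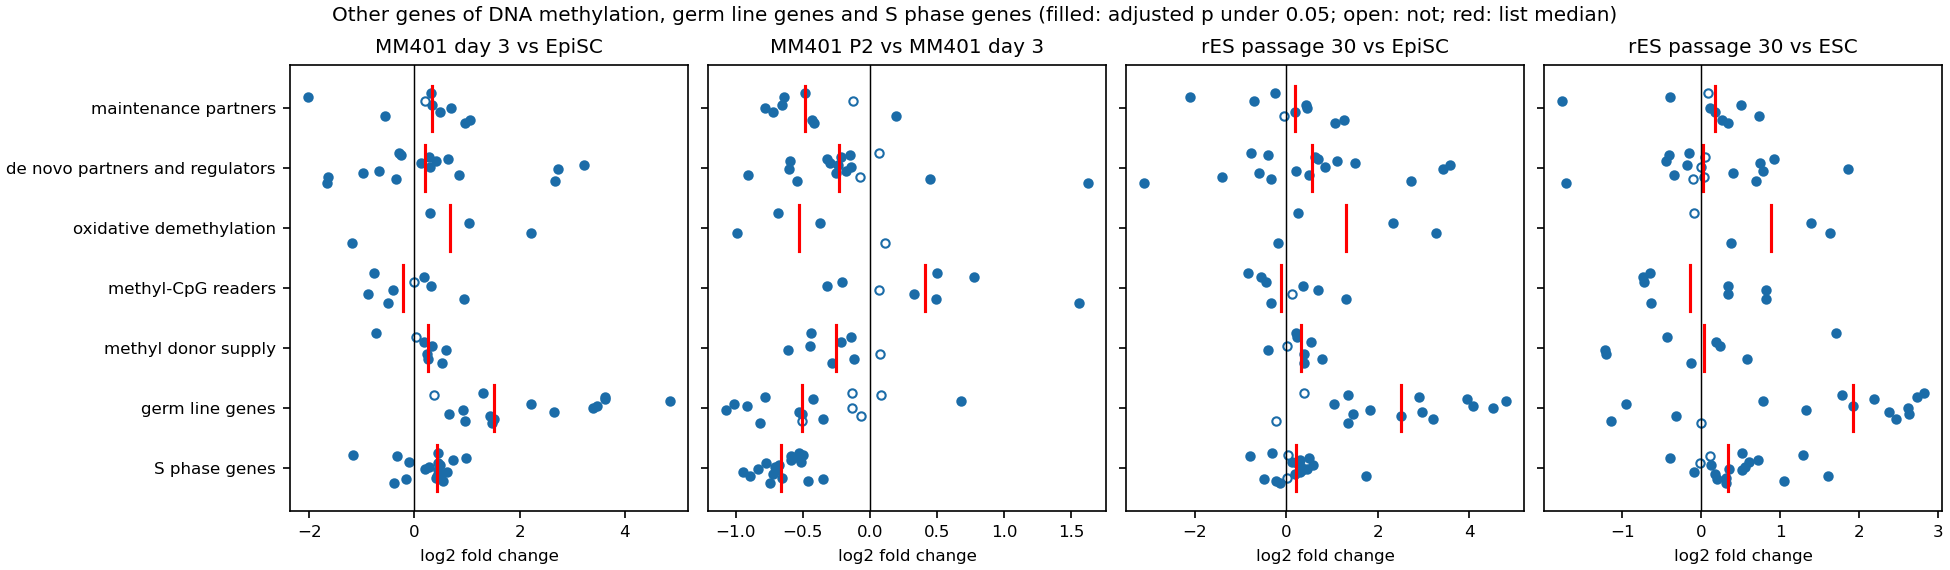
Log2 fold change of each gene of 7 lists in 4 comparisons (filled points passed an adjusted p under 0.05, open points did not; red lines are medians; the scale differs between panels). The medians of the germ line genes were 1.52, -0.51, 2.52 and 1.92, and those of the S phase genes 0.44, -0.67, 0.21 and 0.33.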

How the data were processed

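RNA was taken up on kit columns with DNase treatment, made into TruSeq libraries and read from 1 end, per the labels' protocols. The authors deposited 1 table of raw read counts per gene symbol. The build mm9 and the tools Subread, TopHat2 and DESeq are named in the submitters' processing notes, which give no versions or roles. The sources used here do not say how reads from several places or from overlapping genes were counted. Another 2 columns fitted none of the labels and stayed out. Whether the 2 libraries of a group came from separate cultures is not stated beyond the words biological duplicates, so p-values measure the spread between these libraries.

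Genes were kept with filterByExpr (16247 of 24015) and scaled with TMM. Groups were compared in R 4.3.3 by edgeR 4.0.16 (quasi-likelihood F test, robust), in 1 fit of all 14 libraries with a mean per group, two-sided, with Benjamini-Hochberg adjustment over all genes of a comparison, for all 21 pairs of groups. Calls needed an adjusted p under 0.05, and rose, fell, higher and lower refer to calls where a test is given. Standard errors of log2 fold changes are the size over the square root of F. The code was tested on simulated data. The replicate numbers did not pair the libraries: over 21 pairs of groups the correlation of same-numbered deviations ran from -0.03 to 0.04.

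The 5 genes and the lists were chosen from general knowledge with earlier results of these data known. Besides the 5 genes, the text names the 3 genes nearest to each in pattern (1 of those for Dnmt3b is not reported here), up to 4 called genes of a list by smallest adjusted p, known direct regulators, and overlapping genes. Promoter windows come from RefSeq (GRCm38.p6), where all 5 symbols matched, and lengths from GENCODE M21. Since the files use mm9, no coordinate was taken from them. The alternatives were total counts or RLE size factors for scaling, no filter, DESeq2 1.42.0 (Wald test), a replicate block, a fit of the 4 libraries compared, thinning to the shallowest library, the median transcript length, each library left out and, chosen after the depths were seen, a fit without the 4 deeper libraries.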

Additional observations from a re-analysis of the deposited data

Results flagged for a closer look

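Both Dnmt3b and Dnmt3l differed from EpiSC by unlike amounts at the 2 times of MM401 treatment, by a direct test of P2 against day 3 and by more than 2-fold. Dnmt3b was 4.48 log2 units below EpiSC in P2 and 3.19 below at day 3, a difference of -1.28 ± 0.04 (SE, adjusted p 2.13e-26). Dnmt3l was 1.15 log2 units above EpiSC in P2 and 3.21 above at day 3, a difference of -2.06 ± 0.04 (adjusted p 1.01e-34). The 2 libraries of each group did not overlap for either gene, but this held for all 5 genes in this pair. The share of all genes without overlap was not counted, so this says little about Dnmt3b and Dnmt3l. Summed fibroblast markers were 19090 and 18571 CPM in P2 and 7500 and 7459 CPM at day 3, and the part of these cells in either difference was not tested.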

How the results depend on the processing

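Over the alternatives, 341 of 350 values of the 5 genes in the 6 main comparisons kept their side of the threshold, and those called kept their direction. Values not called could change sign. For rES passage 30 without MM401 against rES passage 30, Dnmt3a ran from -0.042 to 0.039 and Uhrf1 from -0.095 to 0.007. With total counts as the scale the median of all genes moved by up to -0.17 log2 units against EpiSC; there Dnmt1 in ESC against EpiSC was -0.033 (reversed, not called) and Dnmt1 in rES passage 30 against EpiSC was -0.21 (called). For rES passage 30 without MM401 against rES passage 30, Dnmt1 was -0.12 with an adjusted p of 0.101 and Dnmt3l -0.11 with 0.133 in a fit of the 4 libraries compared, and Dnmt3l was -0.10 with 0.0781 after thinning. Leaving out a library gave -0.157 to -0.074 for Dnmt1 and -0.147 to -0.063 for Dnmt3l. There, 44 genes were called at 2-fold, against 17 with DESeq2, 21 after thinning, 83 without the 4 deeper libraries and 22 to 78 with a library left out; genes higher numbered 1689, against 1084 after thinning and 1008 to 1514 with a library left out, and genes lower 1511, against 988 and 983 to 1237. The cause was not tested.

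With the median transcript length, levels per length in EpiSC were 101 for Dnmt1, 99.7 for Uhrf1, 383 for Dnmt3a, 138 for Dnmt3b and 10.2 for Dnmt3l, and in rES passage 30 97.9 for Dnmt1, 151 for Uhrf1, 109 for Dnmt3a and 466 for Dnmt3l. Under the replicate block none of 75 calls of the 5 genes changed (Dnmt1 in ESC against EpiSC was 0.12). In other pairs, calls with small changes were lost or gained: Dnmt1 in MM401 P2 against EpiSC (-0.08, adjusted p 0.0421) was lost without the filter and whenever a library was left out. The order of the groups changed for Uhrf1 with RLE and for Dnmt1 and Dnmt3a with total counts, between neighbours. With 2 libraries a group, changes of a few percent depend on single libraries.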
